A study of Mus musculus with 8 samples.

Results

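The collagens and glycoproteins of the extracellular matrix were examined as a set of 49 named genes: fibrillar collagens, other interstitial collagens, basement membrane components, elastic fibre glycoproteins, adhesive and matricellular glycoproteins, and interstitial proteoglycans. Members were the rows of the deposited count table that carried 1 of the 49 symbols. Of these, 44 were among the 13387 rows of the table, and Col15a1, Eln, Mfap4, Dcn and Lum were not analysed here. Bulk RNA-Seq had been performed on megakaryocytes (MKs), the marrow cells that shed platelets, cultured for 18 hours either alone (4 libraries) or together with mesenchymal stromal cells (MSCs; 4 libraries). Both cell types came from wild-type C57BL/6 mice of 8 to 12 weeks, and neither group carried a transgene or a drug treatment. MSCs were sorted from marrow as CD45-Ter119-CD31-CD51+CD140a+ cells, MKs were enriched with magnetic beads against CD41, and each library held material from 5 pooled wells. The labels describe the sequenced cells as MKs freed of platelets, whereas the methods describe platelets shed in culture. No library of MSCs cultured alone was analysed here. The study describes its libraries as coming from separate mice, and the labels do not tie a library to a mouse or culture, so p-values measure the spread between these libraries.

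The matrix that these genes encode is secreted. Fibrillar collagens are built from 3 chains into cable-like fibrils, type IV collagen and laminins form the sheet-like basement membranes, fibrillins and fibulins organise elastic fibres, and fibronectin and the matricellular proteins link matrix to cell surface receptors. In marrow this matrix is laid down largely by stromal, vascular and bone-forming cells, while MKs contact collagens through integrins and glycoprotein VI.

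Total counts ranged from 4939874 to 9272984 in MKs cultured alone and from 5193949 to 12523616 in cocultures, and 3 counts corresponded to 0.284 to 0.662 CPM (counts scaled by library size and TMM factor) depending on the library. The library labelled coculture 3 stood apart from the others, with the most counts (12523616) but a count for 10735 genes against 13104 to 13193 in cocultures 1, 2 and 4. Every pair of libraries within a group differed by more than sampling noise, with a chi-square per degree of freedom of at least 13.3. All 15 MK and platelet markers listed were measured, with a summed level of 1943 to 2264 CPM in MKs alone and 1752 to 2362 CPM in cocultures, and none was called in either direction (edgeR, with 1 lower and 0 higher at an unadjusted p under 0.05, and 1 lower by DESeq2). Without coculture 3, edgeR called Gp1ba, Gp6 and Nbeal2 of these 15 lower. Neutrophil markers summed to 85870.5 to 88214 CPM in MKs alone and 4590 to 10444 CPM in cocultures.

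Matrix genes took up a small share of the RNA in MKs cultured alone and a far larger one in cocultures. They held 0.0170%, 0.0232%, 0.0299% and 0.0278% of the counts in MKs cultured alone and 0.910%, 1.08%, 0.328% and 1.02% of the counts in cocultures 1 to 4. The groups did not overlap, and coculture 3 was the lowest coculture. Between 21 and 27 of the 44 members had a count in each MK library, against 44 in cocultures 1, 2 and 4 and 32 in coculture 3. In bulk libraries, a larger number of matrix-expressing cells and more matrix RNA per cell cannot be told apart.

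Of the 29 members that passed the filter on low counts, 24 were called higher in cocultures and 0 lower, against 13.2% of all 11722 genes tested called higher and 7.31% called lower (edgeR quasi-likelihood test with Benjamini-Hochberg adjustment, calling a gene when its fold change reached 2, its adjusted p did not exceed 0.05 and 1 group averaged 1 CPM or more). DESeq2 likewise called 24 higher and 0 lower, and 0 members were lower at an unadjusted p under 0.05. The 5 tested members that were not called were Col5a3, Col18a1, Emilin1, Postn and Vcan. The median log2 fold change of the tested members was 8.34, beside 0.03 over all genes tested. These counts describe the members that passed: 15 of the 29 had fewer than 10 counts in every MK library, entered the test through the cocultures, and so had to differ. The other 15 members were not tested, because too few libraries reached the cutoff of the filter. Each had fewer than 10 counts in every MK library and at most 10 in coculture 3, although each had at least 8 counts in cocultures 1, 2 and 4. With coculture 3 left out, 41 of 43 tested members were called higher and 0 lower, against 20.6% and 15.4% of all genes, and Col18a1 and Emilin1 were the members not called. Thbs3 was not tested in either fit. With rows kept by a mean of at least 1 CPM over the 8 libraries, 36 members were called higher and 0 lower. This filter was chosen after seeing the data, and of all rows tested it gave 14.6% higher and 7.07% lower. The members added without coculture 3 or by this filter had few or no counts in MKs alone. They entered the test through the cocultures and so had to differ.

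Counted over all 44 members without a filter, every coculture lay above every MK library for 29, against 17.8% of the rows of the table. Cocultures 1, 2 and 4 lay above every MK library for 42, against 30.3% of the rows, with Col18a1 and Emilin1 the exceptions.

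**Figure D1:**
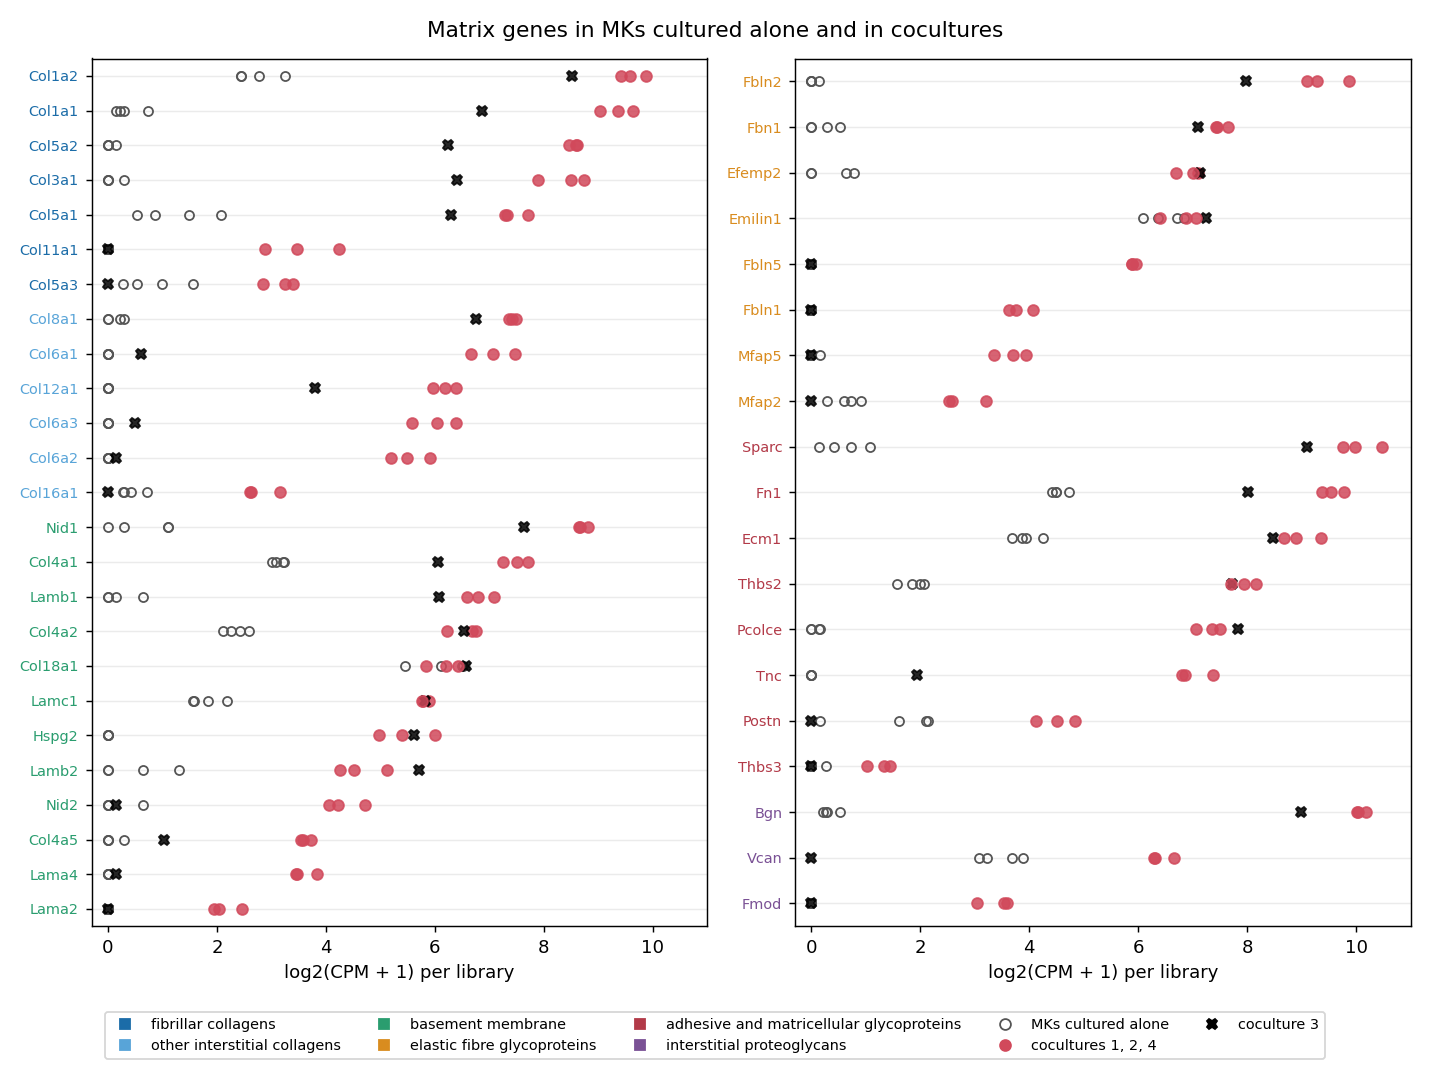
Level of each of the 44 members in each library, as log2(CPM + 1) on the horizontal axis, with genes coloured by group. Open circles are the 4 libraries of MKs cultured alone, red circles are cocultures 1, 2 and 4 and black crosses are coculture 3; the crosses for Vcan, Fbln5, Fbln1 and Fmod sit at 0, and the circles of Emilin1 and Col18a1 overlap.

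The sequences upstream of 4 members are shown because these genes represent the patterns described below: Bgn, with the second highest length-scaled level of the members in cocultures; Col3a1, with 1 count over the 4 MK libraries; Ecm1, already present in MKs alone; and Vcan, at 0 in coculture 3 and in no other library. Each is the 250 bases before the gene's start on GRCm38.p6, read 5′ to 3′ on the gene's strand from RefSeq, and none overlaps an annotated exon. Of the 44 members, 36 had such a window. Capitals mark matches on either strand to 5 short motifs. The TATA box was searched for as TATAAA, and the CCAAT box by the letters of its name. The GC box was searched for as GGGCGG. For the motif bound by TEAD factors the letters were GGAATG. The letters used for the AP-1 site were TGANTCA, with N as any base.
Bgn, chrX:73483351-73483600, plus strand: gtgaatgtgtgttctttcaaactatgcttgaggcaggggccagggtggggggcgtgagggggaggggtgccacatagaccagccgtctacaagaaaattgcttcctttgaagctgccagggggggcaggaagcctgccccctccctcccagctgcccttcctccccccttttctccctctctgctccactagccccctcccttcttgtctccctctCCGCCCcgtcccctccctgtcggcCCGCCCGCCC
Col3a1, chr1:45311288-45311537, plus strand: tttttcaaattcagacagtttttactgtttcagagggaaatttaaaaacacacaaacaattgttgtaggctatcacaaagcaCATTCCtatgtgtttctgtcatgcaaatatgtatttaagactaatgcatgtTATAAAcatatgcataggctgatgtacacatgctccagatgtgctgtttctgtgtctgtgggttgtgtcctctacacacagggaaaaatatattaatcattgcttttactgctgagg
Ecm1, chr3:95739570-95739819, minus strand: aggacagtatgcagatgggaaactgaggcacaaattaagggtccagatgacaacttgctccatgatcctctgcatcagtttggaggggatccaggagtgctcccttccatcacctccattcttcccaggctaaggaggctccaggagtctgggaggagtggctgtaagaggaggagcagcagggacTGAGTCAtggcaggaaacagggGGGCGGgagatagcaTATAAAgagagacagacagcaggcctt
Vcan, chr13:89742513-89742762, minus strand: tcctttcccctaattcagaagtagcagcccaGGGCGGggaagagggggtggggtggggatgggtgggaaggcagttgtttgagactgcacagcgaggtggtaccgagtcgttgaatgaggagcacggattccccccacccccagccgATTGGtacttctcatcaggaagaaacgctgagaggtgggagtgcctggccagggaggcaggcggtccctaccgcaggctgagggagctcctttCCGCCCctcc
The Bgn window held 3 GC boxes, 2 of them overlapping at its end, and the Vcan window held 2 GC boxes and 1 CCAAT box. The Col3a1 window held 1 TATA box and 1 TEAD match. The Ecm1 window held a TATA box, a GC box and an AP-1 match. Among 32851 windows of this length, 12.4% held the TATA box, 33.8% the CCAAT box, 32.7% the GC box, 12.6% the TEAD letters and 6.75% the AP-1 letters. These matches describe letters only.

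Fibrillar collagens were low or absent in MKs alone, where Col1a2 and Col5a1 were the members averaging at least 1 CPM. In cocultures they ranged from Col1a2, the fourth of the 44 members per length, to Col5a3, the 41st. Of 7 members, 6 were tested and 5 called higher; without coculture 3, all 7 were called higher. Col1a1 and Col1a2 encode the chains of type I collagen, the main structural protein of bone. Col1a1 stood at 0.662, 0.103, 0.222 and 0.163 CPM in MKs cultured alone and at 519.9, 795, 115 and 654 CPM in cocultures 1 to 4. The lowest coculture was coculture 3, yet the groups were far apart, and the log2 fold change was 10.96 (SE 0.86, edgeR adjusted p = 5.7e-05). Col1a2 differed from Col1a1 in having counts throughout in MKs alone, at 4.41, 5.87, 4.44 and 8.46 CPM, against 767, 937, 364 and 684 CPM in cocultures. Its log2 fold change was 6.89 (SE 0.42, edgeR adjusted p = 1.9e-05). MKs alone thus held 169 counts of Col1a2 and 7 of Col1a1 over 4 libraries.

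The ratio of Col1a1 to Col1a2 per length of the longest coding transcript was 0.612, 0.766, 0.286 and 0.863 in cocultures 1 to 4, with coculture 3 again lowest. With merged exon lengths in place of transcript lengths, an alternative chosen after seeing the data, the ratios were 1.28, 1.61, 0.601 and 1.81. Which chain was the more abundant thus cannot be told for cocultures 1, 2 and 4. In coculture 3, Col1a2 was the higher with both lengths.

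Col3a1, the chain of type III collagen of distensible tissues, had 1 count in MKs alone, giving 0.221, 0, 0 and 0 CPM. Its cocultures stood at 362, 423, 84.2 and 238 CPM, a ratio of 8104 (95% counting interval 1454 to 320117, edgeR adjusted p = 4.7e-05). Col5a2, a chain of the type V collagen that regulates fibril diameter, lies 24614 bases from Col3a1 on chromosome 1 on the opposite strand. It also had 1 count in MKs alone, and its cocultures stood at 391, 385, 74.3 and 350.1 CPM. Coculture 3 was low for both neighbours, at 0.233 (Col3a1) and 0.193 (Col5a2) of the median of the other cocultures. Members on other chromosomes were as low, such as Col1a1 at 0.176 and Col12a1 at 0.178.

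Col5a1, the partner chain of type V collagen, stood at 0.441, 0.825, 3.22 and 1.79 CPM in MKs alone and at 155, 209, 78.1 and 159 CPM in cocultures. The groups did not overlap, and the log2 fold change was 6.52 (SE 0.64, edgeR adjusted p = 0.000172). The rarer chain Col5a3 stood at 0.441, 0.206, 0.998 and 1.95 CPM in MKs alone and at 6.16, 8.47, 0 and 9.54 CPM in cocultures. Coculture 3 lay below every MK library, and the log2 fold change of 2.73 (SE 1.29) was not called (edgeR adjusted p = 0.163), and without coculture 3 it was 3.15 (edgeR adjusted p = 9.3e-05). Col11a1, a minor fibril chain best known from cartilage, was at 0 in MKs alone and at 10.1, 18.0, 0 and 6.42 CPM in cocultures.

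Among the other interstitial collagens, the 3 chains of type VI collagen, which forms beaded filaments around cells, shared a pattern. No library of MKs alone held a count of Col6a1, Col6a2 or Col6a3. In cocultures Col6a1 stood at 134, 176, 0.523 and 99.9 CPM, at least 975-fold higher than the floor of 3 counts over the MK group. Col6a2 stood at 35.7, 59.5, 0.105 and 43.9 CPM, and Col6a3 at 65.0, 83.1, 0.419 and 47.0 CPM, at least 318-fold and 467-fold higher. Coculture 3 held 5, 1 and 4 counts of these chains in the library with the most counts, and its levels were at most 0.00644 of the median of the other cocultures. None of the 3 passed the filter with all libraries, and without coculture 3 each was called higher (edgeR adjusted p = 1.1e-10, 1.2e-09 and 5.8e-10). At 0 in MKs alone, these chains entered that fit through cocultures 1, 2 and 4 and so had to differ. Per length, Col6a1 exceeded Col6a2 by 4.24, 3.35 and 2.58 times in cocultures 1, 2 and 4, and the order was the same with merged exon lengths.

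The pattern was not shared by Col8a1, a short-chain collagen of vessel walls. It had 3 counts in MKs alone (0, 0, 0.222 and 0.163 CPM) and stood at 171, 178, 107 and 163 CPM in cocultures, a ratio of 1498 (counting interval 512 to 7268, edgeR adjusted p = 1.8e-05). Coculture 3 reached 0.626 of the median of the others. Col12a1, a fibril-associated collagen, was at 0 in MKs alone and at 83.1, 72.3, 12.9 and 61.6 CPM in cocultures, at least 558-fold higher (edgeR adjusted p = 0.00132). Col16a1, of the same class, was the lowest, at 0.206 to 0.651 CPM in MKs alone and 5.12, 5.21, 0 and 7.98 CPM in cocultures. In this group 2 of 6 members were tested with all libraries, and both were called higher; all 6 were called higher without coculture 3.

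Basement membrane genes included members with counts in MKs cultured without MSCs. In those libraries neutrophil markers summed to far more CPM than MK and platelet markers, and which cells held these counts was not tested. Of 12 members in the table, 8 were tested and 7 called higher, and 11 of 12 were called higher without coculture 3. Col4a1 and Col4a2, the core chains of type IV collagen, lie head to head on chromosome 8 with starts that overlap by 22 bases. Col4a1 stood at 7.06, 7.52, 8.43 and 8.30 CPM in MKs alone and at 151, 209, 65.9 and 180.1 CPM in cocultures, a log2 fold change of 4.27 (SE 0.38, edgeR adjusted p = 0.000109). Col4a2 stood at 3.31, 3.81, 4.99 and 4.39 CPM in MKs alone and at 74.1, 102, 91.6 and 107 CPM in cocultures, a log2 fold change of 4.49 (SE 0.29, edgeR adjusted p = 2.1e-05). Both pairs of groups were well separated. Per length, the ratio of Col4a1 to Col4a2 was 2.08, 1.92, 1.65 and 1.84 in MKs alone and 1.99, 2.001, 0.702 and 1.65 in cocultures, so that coculture 3 was the only library of the 8 with less Col4a1 than Col4a2, also with merged exon lengths.

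Col18a1, whose collagen carries the endostatin fragment, behaved differently. It stood at 42.6, 68.4, 88.9 and 90.5 CPM in MKs alone and at 56.4, 73.2, 94.5 and 84.8 CPM in cocultures. The groups overlapped throughout, and the log2 fold change of 0.09 (SE 0.29, edgeR adjusted p = 0.861) was within the spread of the libraries, and was -0.05 without coculture 3. Coculture 3 was its highest coculture.

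The laminin chains encode the cross-shaped trimers of basement membranes, here represented by Lamc1 (gamma 1) with Lamb1 and Lamb2 (beta 1 and beta 2). Lamc1 stood at 1.99, 2.58, 3.55 and 1.95 CPM in MKs alone and at 54.0, 58.1, 55.5 and 53.1 CPM in cocultures, with a log2 fold change of 4.43 (SE 0.35, edgeR adjusted p = 5.3e-05). Lamb1 stood at 0, 0.103, 0.554 and 0 CPM in MKs alone and at 95.3, 109.7, 66.7 and 135 CPM in cocultures, a log2 fold change of 8.92 (SE 0.80, edgeR adjusted p = 0.000109). The cocultures agreed closely for Lamc1, coculture 3 included. Lamb2 stood at 0, 0, 0.554 and 1.46 CPM in MKs alone and at 18.1, 21.9, 51.4 and 33.8 CPM in cocultures, a log2 fold change of 5.92 (SE 1.13, edgeR adjusted p = 0.00610). It was the member with the highest coculture 3 relative to the others, at 2.35 times their median. Per length, the ratio of Lamb1 to Lamc1 was 2.32, 2.49, 1.58 and 3.36 in cocultures and that of Lamb2 to Lamc1 was 0.454, 0.510, 1.25 and 0.863, so that the beta chains were nearest to each other in coculture 3. The alpha chains Lama2 and Lama4 were at 0 in MKs alone, and stood at 2.84, 3.13, 0 and 4.51 CPM and at 10.05, 9.90, 0.105 and 13.4 CPM in cocultures.

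Nid1, the nidogen that bridges laminin and type IV collagen, had the highest length-scaled level of the basement membrane group in cocultures. It stood at 0.221, 1.13, 0 and 1.14 CPM in MKs alone and at 446, 401, 199 and 407 CPM in cocultures, a log2 fold change of 9.11 (SE 0.79, edgeR adjusted p = 9.6e-05). Its paralog Nid2 stood at 0, 0, 0.554 and 0 CPM in MKs alone and at 15.6, 25.4, 0.105 and 17.7 CPM in cocultures. In coculture 3, Nid1 was at 0.488 of the median of the others, and Nid2 at 0.00591. Hspg2, which encodes the heparan sulfate proteoglycan perlecan, was at 0 in MKs alone and at 30.3, 41.0, 48.1 and 63.3 CPM in cocultures, at least 426-fold higher (edgeR adjusted p = 0.000219). Coculture 3 was not low for Hspg2, at 1.17 times the median of the others. Col4a5, a minor type IV chain, had 2 counts in MKs alone and stood at 10.7, 10.9, 1.05 and 12.3 CPM in cocultures.

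The elastic fibre glycoproteins ranged from Fbln2, almost absent from MKs alone, to Emilin1, the highest member there per length. Fbln2, a fibulin that binds fibronectin and fibrillin, had 1 count in MKs alone (0, 0.103, 0 and 0 CPM). Its cocultures stood at 549.9, 619.9, 252 and 938 CPM, a ratio of 16106 (counting interval 2890.3 to 636186, edgeR adjusted p = 1.5e-05). Emilin1, a microfibril glycoprotein that also binds integrins, stood at 66.9, 81.3, 114 and 104 CPM in MKs alone and at 83.5, 116, 150.1 and 133 CPM in cocultures. The groups overlapped, and the log2 fold change of 0.40 (SE 0.26) was not called (edgeR adjusted p = 0.297), and was 0.25 without coculture 3 (edgeR adjusted p = 0.322).

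Efemp2, a fibulin needed for collagen and elastin crosslinking, stood at 0, 0.721, 0.554 and 0 CPM in MKs alone and at 103, 137, 140.1 and 127 CPM in cocultures. All 4 cocultures lay close together, and the log2 fold change was 8.34 (SE 0.75, edgeR adjusted p = 0.000109). Fbn1, the main fibrillin of microfibrils, rose likewise from at most 0.441 CPM to 136 to 200.2 CPM. Fbln5, a fibulin of elastic fibres, stood at 57.9, 57.8 and 61.1 CPM in cocultures 1, 2 and 4, within 1.06 times of each other, and at 0 in coculture 3. Fbln1, Mfap2 and Mfap5 were also at 0 in coculture 3 and at 11.4 to 15.9, 4.74 to 8.21 and 9.19 to 14.3 CPM in cocultures 1, 2 and 4. Of 8 members in the table, 4 were tested and 3 called higher, and 7 of 8 were called higher without coculture 3.

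Adhesive and matricellular glycoproteins made up the largest part of the matrix transcripts in cocultures, per length. Sparc (osteonectin), a collagen-binding glycoprotein of bone, had the highest mean there, ahead of Bgn in cocultures 2 and 3 and behind it in cocultures 1 and 4. It stood at 1.10, 0.103, 0.333 and 0.651 CPM in MKs alone and at 1014, 1419, 548 and 871 CPM in cocultures, a log2 fold change of 10.95 (SE 0.64, edgeR adjusted p = 1.8e-05). Fn1, fibronectin, stood at 25.6, 20.3, 21.5 and 21.6 CPM in MKs alone and at 748, 660.3, 257 and 883 CPM in cocultures, a log2 fold change of 4.84 (SE 0.40, edgeR adjusted p = 7.5e-05). The baseline of Fn1 was present in each MK library, at 22.3 ± 2.31 CPM (SD, n = 4).

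Ecm1, a secreted glycoprotein that binds perlecan and other matrix proteins, stood at 11.9, 13.6, 18.0 and 14.3 CPM in MKs alone and at 411, 475, 353 and 656 CPM in cocultures. The log2 fold change was 5.03 (SE 0.28, edgeR adjusted p = 1.5e-05), and coculture 3 was at 0.744 of the median of the others. Pcolce, an enhancer of procollagen C-proteinase, had 2 counts in MKs alone (0, 0.103, 0.111 and 0 CPM) and stood at 132, 163, 227 and 180.1 CPM in cocultures, a ratio of 2566 (counting interval 710.1 to 21195, edgeR adjusted p = 6.1e-06). Coculture 3 was its highest coculture. Thbs2, a thrombospondin of connective tissue, stood at 1.99, 2.99, 3.22 and 2.60 CPM in MKs alone and at 244, 287, 212 and 208 CPM in cocultures, a log2 fold change of 6.43 (SE 0.26, edgeR adjusted p = 4.1e-06).

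Tnc, tenascin C, was at 0 in MKs alone and at 111, 165, 2.83 and 115 CPM in cocultures, at least 912-fold higher (edgeR adjusted p = 0.00765), with coculture 3 at 0.0245 of the median of the others. Postn, periostin, stood at 3.31, 2.06, 0.111 and 3.42 CPM in MKs alone and at 27.7, 21.8, 0 and 16.5 CPM in cocultures. Cocultures 1, 2 and 4 lay above every MK library and coculture 3 below them, and the log2 fold change of 2.90 (SE 1.42) was not called (edgeR adjusted p = 0.178), and without coculture 3 it was 3.38 (edgeR adjusted p = 3.0e-05). Thbs3, at 1.04 to 1.73 CPM in cocultures 1, 2 and 4 and 0 in coculture 3, was near the detection limit. Of 8 members 7 were tested and 6 called higher, and 7 of 7 tested were called higher without coculture 3.

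Of the interstitial proteoglycans, Bgn, biglycan, was among the most abundant members in cocultures. It stood at 0.441, 0.206, 0.222 and 0.163 CPM in MKs alone and at 1156, 1039.7, 506 and 1046 CPM in cocultures, a log2 fold change of 11.83 (SE 0.47, edgeR adjusted p = 4.1e-06). Its cocultures 1, 2 and 4 agreed within 1.11 times, and coculture 3 was at 0.483 of their median. Vcan, versican, a large hyaluronan-binding proteoglycan that myeloid cells also make, stood at 11.9, 8.35, 13.8 and 7.48 CPM in MKs alone and at 101, 78.3, 0 and 77.2 CPM in cocultures. Coculture 3 held no Vcan count although each MK library did, and the log2 fold change of 2.62 (SE 1.25) was not called (edgeR adjusted p = 0.166), and without coculture 3 it was 3.02 (edgeR adjusted p = 1.4e-08). Fmod, fibromodulin, which regulates fibril growth, was at 0 in MKs alone and at 10.995, 10.6, 0 and 7.29 CPM in cocultures.

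**Figure D2:**
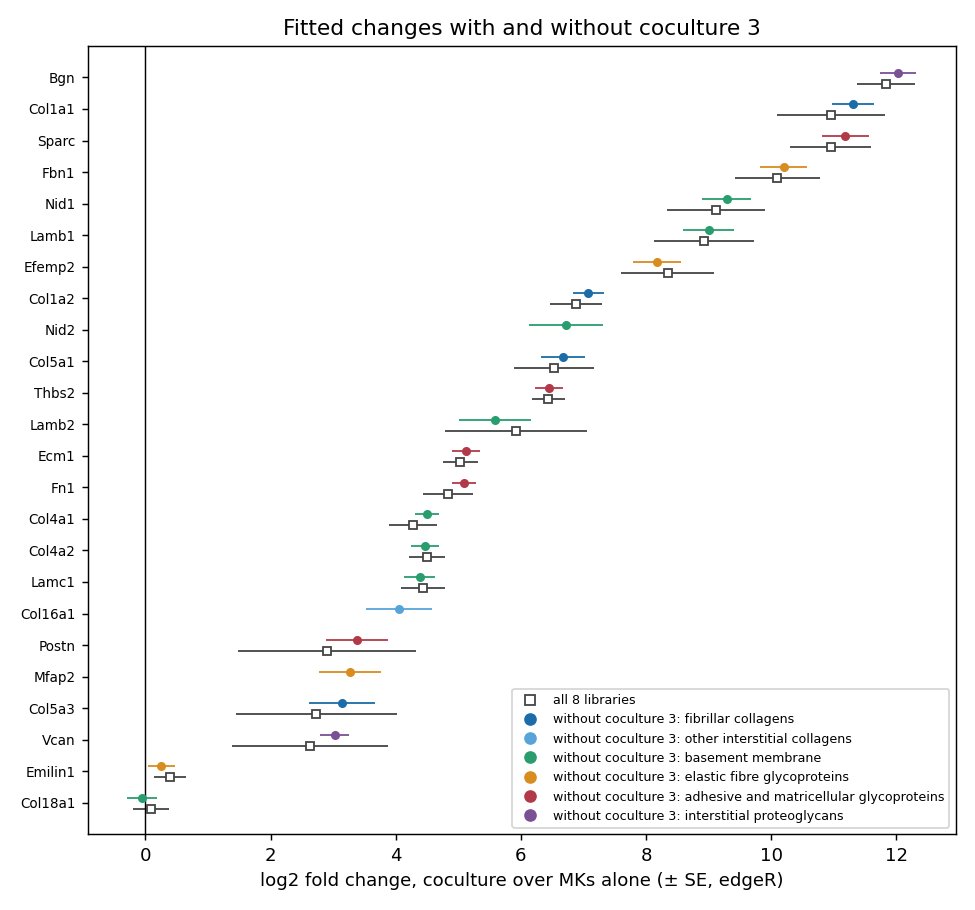
Fitted log2 fold change of cocultures over MKs cultured alone, with its standard error, for the 24 members with more than 3 counts over the MK libraries. White squares are the fit with all 8 libraries, drawn where the member was tested, and coloured circles the fit without coculture 3; Vcan, Postn and Col5a3 have wide bars with coculture 3 and narrow bars without it, and Emilin1 and Col18a1 lie near 0 in both.

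The make-up of the matrix transcripts differed between the cultures as well as their amount. Emilin1 and Col18a1 together made up 61.5% to 70.4% of the summed length-scaled level (CPM per kb) of the members in MKs alone and 1.43% to 4.48% in cocultures. Next in MKs alone came Ecm1, with a mean share of 14.2%, and Fn1, with 5.19%. In cocultures the leading shares were those of Sparc (19.7%), Bgn (18.3%), Ecm1 (12.2%), Col1a2 (6.04%), Pcolce (5.86%) and Fbln2 (5.68%). Ecm1 thus kept a similar share in both cultures while its level differed about 30.4-fold.

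By group, fibrillar collagens made up 2.17% to 3.49% of the members' summed CPM per kb in MKs alone and 9.87% to 18.4% in cocultures. Proteoglycans made up 1.09% to 2.81% in MKs alone and 16.8% to 22.0% in cocultures. Adhesive and matricellular glycoproteins made up 19.4% to 27.6% in MKs alone and 40.3% to 50.6% in cocultures. The share of elastic fibre glycoproteins was 43.4% to 47.2% in MKs alone and 9.83% to 13.4% in cocultures, and that of basement membrane genes 23.4% to 30.7% and 6.56% to 8.44%. In none of these 5 groups did the ranges overlap. The lower shares of the last 2 groups came with higher summed levels. Elastic fibre genes summed to 17.6 to 30.7 CPM per kb in MKs alone and 156 to 318 CPM per kb in cocultures, and basement membrane genes to 9.49 to 18.8 and 105 to 175 CPM per kb. Shares of 1 total are bound to each other, so these were not tested.

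**Figure D3:**
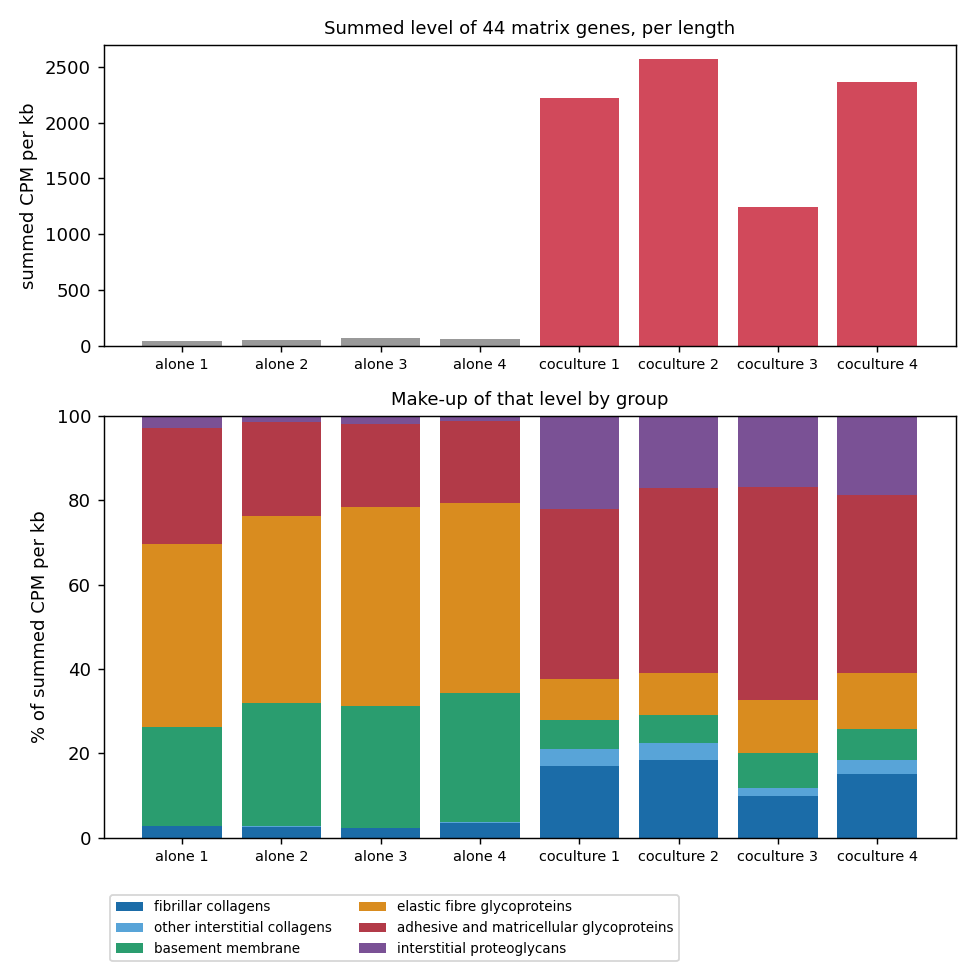
Upper panel, summed level of the 44 members per library in CPM per kb of the longest coding transcript; lower panel, the percentage of that sum held by each of the 6 groups. The 4 libraries of MKs alone sum to 40.6 to 65.0 CPM per kb and are led by elastic fibre and basement membrane genes, and the cocultures sum to 1246 to 2569 CPM per kb and are led by adhesive and matricellular glycoproteins.

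Coculture 3 lacked some members and kept others. It held no count for 12 of the 44, against 19.8% of all rows of the table. Of the 38 members with at least 50 counts in each of cocultures 1, 2 and 4, 6 were at 0 in coculture 3, 7 were above 0 but below 0.1 of the median of the others, 11 lay between 0.1 and 0.5 of it, 13 between 0.5 and 2 times, and Lamb2 above 2 times. Across the rows of the table with at least 50 counts in the same libraries, 6.99% were at 0 in coculture 3. The same members differed among cocultures 1, 2 and 4 by a median of 1.41 times between highest and lowest (from 1.06 for Fbln5 to 2.09 for Hspg2). The type VI collagen chains and Nid2 were nearly absent there, while Hspg2, Lamc1, Col4a2 and Pcolce were at or near the level of the other cocultures.

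**Figure D4:**
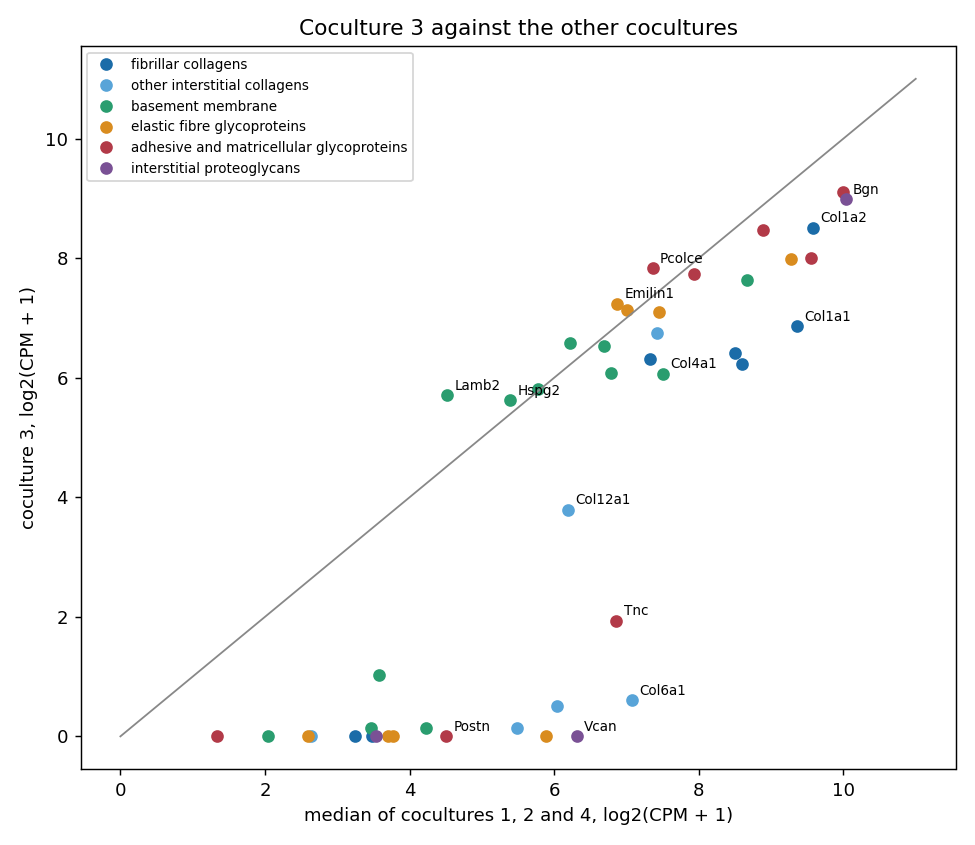
Each member's level in coculture 3 (vertical axis) against the median of cocultures 1, 2 and 4 (horizontal axis), both as log2(CPM + 1), with equal levels on the grey line. Lamb2 and Pcolce lie above the line, Bgn and Col1a2 somewhat below it, and Vcan, Postn, Col6a1 and Tnc far below it near the horizontal axis.

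Markers of other cells also differed between the cultures, some lists higher and some lower in cocultures, and their part in the result was not tested. Of 15 listed MSC and stromal markers 14 were in the table, 11 were tested, 7 called higher and 1 (Nt5e) lower. Their summed level was 223 to 242 CPM in MKs alone, 768 to 988 CPM in cocultures 1, 2 and 4 and 479 CPM in coculture 3. The stromal transcription factor gene Prrx1 stood at 0.662, 0, 0.111 and 0 CPM in MKs alone and at 183, 146, 253 and 132 CPM in cocultures. Pdgfra, which encodes the CD140a used in the MSC sort, stood at 0, 0.515, 0.111 and 0 CPM in MKs alone and at 34.8, 26.6, 0.209 and 24.8 CPM in cocultures. Coculture 3 was thus the highest coculture for Prrx1 and near 0 for Pdgfra. Foxc1 was at 0 in every library of MKs alone, and Lepr and Kitl were at 0 in coculture 3. Smooth muscle and pericyte markers summed to 41.0 to 47.2 CPM in MKs alone and 1069 to 2508 CPM in cocultures, with coculture 3 the highest. Of 3 tested, 2 were called higher. Acta2 held most of the sum, at 26.5 to 37.0 CPM in MKs alone and 988 to 2312 CPM in cocultures. Acta2 and Cnn1 were highest in coculture 3, whereas Des, Rgs5, Cspg4 and Notch3 were at 0 there. Mcam, not called, averaged 11.6 CPM in MKs alone and 8.40 CPM in cocultures. Cnn1, Des and Cspg4 of this list were at 0 in every library of MKs alone. Macrophage markers summed to 157 to 230.2 CPM in MKs alone and 955 to 1435 CPM in cocultures, with coculture 3 again the highest. Of 11 in the table, 10 were tested and 10 called higher, with Marco at 0 in MKs alone. Cd163, not tested, went the other way, averaging 1.68 CPM in MKs alone and 0.331 CPM in cocultures. Of 6 listed adipocyte markers 3 were in the table, and all 3 were tested and called higher. They summed to 11.3 to 18.1 CPM in MKs alone and 341 to 678 CPM in cocultures. Lpl held most of this sum, and coculture 3 was again the highest. Endothelial markers, of cells that also make basement membrane, summed to 70.8 to 80.9 CPM in MKs alone and 13.3 to 34.1 CPM in cocultures, and 1 of the 4 tested was called lower. The table held 4 osteoblast markers. The 1 tested, Runx2, was not called by edgeR (log2 fold change -1.06, adjusted p = 0.0631) but was called lower by DESeq2, and without coculture 3 Alpl was tested and called higher. The 4 summed to 29.3 to 44.8 CPM in MKs alone and 17.7 to 33.1 CPM in cocultures, and Runx2 held most of this sum. Means of Alpl, Ibsp and Phex went the other way, from 0.122, 0.229 and 0.177 CPM in MKs alone to 2.84, 2.58 and 3.29 CPM in cocultures. These levels were low, and Ibsp and Phex were at 0 in some cocultures. All 12 neutrophil markers were called lower.

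The enzymes and chaperones that make and crosslink collagen were described from a list of 32 genes, 31 of them in the table. Of 25 tested, edgeR called 16 higher and 0 lower, and DESeq2 called 18 higher and 0 lower. At an unadjusted p under 0.05 in edgeR, 1 was lower. Without coculture 3 the counts were 25 higher and 1 lower of 30. Over all genes the shares were 13.2% higher and 7.31% lower with all libraries, and 20.6% and 15.4% without coculture 3. Some tested genes, among them Lox and Loxl1 at 0 in MKs alone, passed the filter through the cocultures and so had to differ. The median log2 fold change of those tested was 2.65, beside 0.03 over all genes. Lox, lysyl oxidase, which crosslinks collagen and elastin, was at 0 in every library of MKs alone and at 1204, 985, 625 and 726 CPM in cocultures, at least 8886-fold higher. Serpinh1, the collagen chaperone HSP47, had 2 counts in MKs alone and stood at 502, 695, 211 and 405 CPM in cocultures. Fkbp10, a prolyl isomerase of procollagen folding, stood at 0, 0.309, 0.444 and 0.163 CPM in MKs alone and at 164, 251, 219 and 191 CPM in cocultures. For all 3 the groups were far apart, coculture 3 included.

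Of 26 tested matrix receptor genes, 14 were called higher and 3 lower, and 18 and 5 of 29 without coculture 3, with a median log2 fold change of 1.71. Of all genes, 13.2% were called higher and 7.31% lower with all libraries, and 20.6% and 15.4% without coculture 3, so the share of receptors called lower was near that of all genes. The count of 3 lower fell to 1 without MKs alone 1 or 2 or without coculture 1, 2 or 4. Receptor genes such as Mrc2, with 2 counts in MKs alone, also passed the filter through the cocultures and so had to differ. Itgb1, the beta subunit common to collagen and laminin receptors, stood at 394, 321, 274 and 335 CPM in MKs alone and at 1396, 1380.3, 544 and 1163 CPM in cocultures (log2 fold change 1.76, SE 0.31, edgeR adjusted p = 0.00379). Cd36, a receptor for thrombospondins, and Itgav, the alpha subunit of vitronectin receptors, were called higher by log2 fold changes of 4.80 and 2.64. The 3 called lower were Cd47, a thrombospondin receptor (log2 fold change -1.22), Itga4, a subunit of a fibronectin receptor (-1.46), and Itgb6 (-3.27). Among the MK collagen receptor genes, Gp6, the signalling receptor of platelets, stood at 11.7, 7.32, 3.11 and 5.86 CPM in MKs alone and at 4.74, 1.69, 0 and 2.43 CPM in cocultures, and was not called with all libraries (edgeR adjusted p = 0.302), whereas without coculture 3 it was called lower (log2 fold change -1.20, edgeR adjusted p = 0.0401).

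Other genes of the core matrix, 57 of 102 listed being in the table, gave 12 higher and 3 lower of 27 tested, and 32 and 6 of 43 without coculture 3, with a median log2 fold change of 3.21. These counts stand beside 13.2% and 20.6% of all genes called higher in the same fits, and 7.31% and 15.4% called lower. The counts of lower genes were near the shares of all genes called lower. Genes such as Ccn1 and Ccn5, at 0 in MKs alone, entered the test through the cocultures and so had to differ. Spp1, osteopontin, stood at 65.1, 45.3, 40.9 and 47.99 CPM in MKs alone and at 13156, 9767, 6790.5 and 11332 CPM in cocultures (log2 fold change 7.69, SE 0.35, edgeR adjusted p = 6.1e-06). Thbs1, the thrombospondin stored in platelet granules, was called higher by a log2 fold change of 3.58, and Ccn2, a connective tissue growth factor gene, had 2 counts in MKs alone and 259 to 1283 CPM in cocultures. The 3 called lower were Srgn, the granule proteoglycan serglycin of blood cells (log2 fold change -2.27), Mmrn1, the multimerin of MK and platelet granules (-1.59), and Fgl2 (-3.55). The level of Spp1 alone was above the summed CPM of the 44 members in cocultures 1, 3 and 4 (8651, 4292 and 9155 CPM) and just below it in coculture 2 (9879 CPM).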

How the data were processed

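The authors deposited raw counts per gene for 8 libraries. According to the methods, paired-end SMART-Seq HT reads were trimmed with fastp and quantified with kallisto against mm10 transcripts. How transcripts were summed to genes and whether strand was used are not given in the sources used here, so overlapping and antisense genes are uncertain. The lowest row total was 11 counts. Groups and replicate numbers came from the labels.

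Members, gene lists and tests were chosen with earlier results of these data known. Counts were fitted over the whole table with edgeR 4.0.16 in R 4.3.3 (TMM factors, filterByExpr, robust quasi-likelihood F test, all 8 libraries, no covariate, 2-sided) and adjusted by Benjamini-Hochberg over 11722 genes. The authors' own DESeq2 model included a batch term, but no source used here assigns libraries to batches, so these fits leave it out. Calls required a fold change of 2, an adjusted p of 0.05 and a group mean of 1 CPM. DESeq2 1.42.0, other scalings and filters, a replicate block and leaving out each library were alternatives. Levels between genes were compared per kb of the longest coding transcript (GENCODE, GRCm38). Members at 0 in all MK libraries were set against 3 counts over that group, and ratios on 1 to 3 counts carry 95% intervals that cover counting error only. Genes with fully given values included the 3 highest of each group per length in cocultures, those tested and not called, and those averaging at least 1 CPM in MKs alone. Values of members outside these rules, such as Hspg2 and Tnc, were also given. For other lists, the genes named by rule were the 3 highest called in each direction. Gp6, Loxl1, Mrc2, Ccn1, Ccn5 and the single marker genes were named after their values were seen.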

Additional observations from a re-analysis of the deposited data

Results flagged for a closer look

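A library was marked where, among the 4 of its group, its gap to the nearest other library took up nearly the whole range of log2(CPM + 1). Of 90 groups of values examined, 25 had such a library. In 19 of the 90 at least 3 libraries were at 0, so that any mark there was fixed by the zeros. In the other 71, where chance would give about 3.55, 18 had such a library, and in each it was coculture 3.

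Coculture 3 was marked as the low library for members of each group. On the log2(CPM + 1) scale it stood at 0 for Col5a3, Fbln1, Fbln5, Mfap5, Postn, Fmod and Vcan. It stood at 0.14 for Col6a2, Lama4 and Nid2, at 0.50 for Col6a3, at 0.61 for Col6a1, at 1.03 for Col4a5 and at 1.94 for Tnc. For Col12a1 it stood at 3.79, for Col5a2 at 6.23, for Nid1 at 7.64 and for Bgn at 8.98. The last 3 were far below the close values of cocultures 1, 2 and 4 but above every library of MKs alone. Coculture 3 was also above every library of MKs alone for Col12a1, Tnc and Col4a5. The same held for Lama4 and the type VI collagen chains, on a few counts each. The cause was not tested.

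In MKs cultured alone, 7 members had a count in 1 library and none in the others. On the same scale Col3a1 stood at 0.29 in library 1, Col5a2 and Fbln2 each at 0.14 and Thbs3 at 0.27 in library 2, and Col4a5 at 0.29, Mfap5 at 0.15 and Nid2 at 0.64 in library 3. Each value rests on 1 to 5 counts, and the zeros of the other libraries fixed the mark.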

How the results depend on the processing

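The 24 members called higher were also called under DESeq2, RLE factors, library size alone, scaling to MK and platelet markers, no filter, no minimum CPM, no minimum fold and every single-library omission, and 0 were called lower in any of these. Leaving out 1 library gave 24 to 41 members higher, 41 being without coculture 3, and 0 lower. Matching ranges were 13 to 25 higher and 0 to 1 lower for collagen synthesis genes, 14 to 18 higher and 1 to 5 lower for receptors, and 12 to 32 higher and 2 to 6 lower for other core matrix genes. The top of each of these ranges came without coculture 3. The 1 receptor called lower was without MKs alone 1 or 2 or coculture 1, 2 or 4. Receptors called lower numbered 5 by DESeq2 and 1 with the replicate block, against 3. Other core matrix genes called higher numbered 22 both with no filter and with a mean of at least 1 CPM, against 12.

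The median log2 fold change of tested members ranged from 8.36 to 9.04 with 1 library left out, over differing sets of members. For Col18a1 it ranged from -0.11 without MKs alone 1 to 0.22 without coculture 1, and was -0.05 without coculture 3, so its sign was not stable. Col5a3, Postn and Vcan passed the threshold only without coculture 3 among the alternatives, at 3.15, 3.38 and 3.02. Of the values for the 23 tested members named by rule, 294 kept their direction and side of the threshold, 2 were reversed and 3 were stronger. The median of all genes moved from 0.03 to 0.13 with scaling to MK and platelet markers and to -0.14 with the replicate block, small beside the called changes.

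Whether equal replicate numbers pair the libraries could not be settled. Deviations of same-numbered libraries correlated at 0.0198 to 0.369, against -0.282 to 0.099 for libraries of unlike number. Of the same-numbered pairs 2 of 4 exceeded 0.1, and 4 of 8 libraries correlated best with their own number. With the block, 24 members were called higher and 0 lower, and 11 synthesis genes were called higher against 16. A change under 3 counts, 0.284 to 0.662 CPM, was not detectable, and what set coculture 3 apart was not tested.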
